A study of Mus musculus with 72 samples.

Results

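Livers of DBA/2J (DBA) mice were compared with livers of C57BL/6J (B6) mice on the same control Western diet, across all genes of a polyA RNA sequencing count table. The libraries were chosen by the diet label WD Control, which 24 of the 72 libraries of the series carry: 12 of DBA and 12 of B6, with 6 female and 6 male libraries in each strain. The other 48 libraries came from mice on Western diets with a low or a high isoleucine content and were used only to repeat the strain comparison. DBA female, DBA male, B6 female and B6 male livers were all taken from 18-week-old mice, after 12 weeks on the diet and an overnight fast of 16 h. No group carried a transgene, a drug or an engineered allele; each strain is a single inbred genome. The strain field spells B6 as C56BL/6J, whereas the design text spells it C57BL/6J. The design text has the diets begin at 6 weeks of age, and the treatment text gives 18 weeks. Library titles carry a number and the letter N or R, whose meaning the labels do not give. Neither a batch nor an hour of sampling is given. The labels do not say that each library is a separate animal, and p-values therefore measure how far libraries scatter, which may in part be technical scatter.

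DBA and B6 are inbred strains that separated early in the history of laboratory mice and differ at many loci in coding sequence, copy number and regulatory sequence. They carry different haplotypes of the major histocompatibility complex and of several clustered gene families whose members are near copies of each other. B6 is the strain of the reference genome. Reads of DBA were aligned to that B6 reference, per the labels' protocols, so a DBA read that differs from B6 in sequence may be lost or assigned to another copy. A lower count in DBA can therefore hold less RNA, less alignment or both, and these cannot be told apart from the counts.

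The first principal component, with 41.3% of the total variance, followed strain (97.3% of it), and the second, with 21.97%, followed sex (95.7% of it). Library totals ran from 18.1 to 27.8 in units of 1e6 counts in DBA (median 21.6) and from 13.0 to 48.8 in B6 (median 24.9). Xist, the RNA that silences an X chromosome, had 218 to 973 CPM (counts scaled to 1e6 per library) in females and at most 0.433 CPM in males. Ddx3y, a Y-linked gene, had 20.8 to 46.6 CPM in males and at most 0.571 CPM in females, so the sex labels held in all 24. On the third component B6 female library 4 lay at -28.1, against 4.50 to 34.96 for the other B6 females, and B6 male libraries 1 and 2, which share a title number, lay at -35.3 and -29.1, against -10.8 to 4.40 for the other B6 males. Values without these 3 libraries are given beside the results that rest on them. Mitochondrially encoded genes took 6.07 to 11.3% of counts in DBA (median 8.74%) and 6.58 to 12.3% in B6 (median 10.95%).

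Of 14184 genes with enough counts to be tested, 5914 differed between DBA and B6 at an adjusted p below 0.05, which is 41.7%. In DBA, 2958 genes (20.9%) were higher and 2956 (20.8%) were lower, and the median log2 fold change of all genes tested was 0.01. A difference of at least 2-fold was called for 724 genes higher in DBA (5.1%) and 808 lower (5.7%). At 8-fold or more these counts were 178 (1.25%) and 126 (0.888%). For 387 genes (2.73%) every DBA library lay above every B6 library, and for 403 (2.84%) every DBA library lay below, 5.57% in all. With those 3 libraries left out, 5723 genes were called, and 85.6% of the 5914 were called in the same direction. Because so many genes differ, the count of each gene list is to be read against these shares.

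Genes at which the strains are known to carry different alleles were described first. The list held 15 gene entries, of which Klrd1, a receptor subunit of natural killer cells, had too few counts to be tested. Of the 14 tested, 8 were higher in DBA, 4 were lower and 2 were not called. The list was chosen because its alleles are known to differ, so its count is no independent evidence of a strain difference.

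H2-Ea-ps, the gene of the alpha chain of the class II molecule H2-E, is silent in mice of the B6 haplotype because its promoter carries a deletion. It lay at 7.36, 13.3 and 29.95 CPM (lowest, median and highest of 12) in DBA, and at 0 in 11 B6 libraries and 0.0672 CPM in the other. Summed over libraries, 4155 counts in DBA stood against 2 in B6, a ratio of 2440 between the strains with a 95% counting interval of 676 to 20200. Alad, the second enzyme of haem synthesis, is duplicated in DBA. It lay at 230 to 483 CPM in DBA (median 308) and at 72.8 to 126 CPM in B6 (median 108), without overlap, a log2 fold change of 1.59 ± 0.12 (SE, here and below; adjusted p = 3.72e-11). Glo1, the glyoxalase that detoxifies methylglyoxal, lies in another duplicated segment. It lay at 451 to 795 CPM in DBA (median 568) and at 200.7 to 363 CPM in B6 (median 282), again without overlap, a log2 fold change of 1.02 ± 0.09 (adjusted p = 2.23e-10).

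Nnt, the mitochondrial transhydrogenase, carries a deletion of several exons in C57BL/6J. The annotation holds 2 overlapping gene entries for it, and reads of one can be counted in the other. The first lay at 39.0 to 103 CPM in DBA (median 66.5) and at 20.9 to 42.0 CPM in B6 (median 33.1), a difference of 1.12 ± 0.12 in log2 (adjusted p = 1.01e-08), and the second rose by 0.79 ± 0.15 (adjusted p = 8.66e-05). C4a, the sex-limited complement component, lay at 198 to 328 CPM in DBA males and 16.6 to 44.2 CPM in DBA females, against 7.54 to 49.4 CPM in B6 males and 1.92 to 8.31 CPM in B6 females. In each sex every DBA library lay above every B6 library; over both sexes the log2 fold change was 3.09 ± 0.34 (adjusted p = 9.1e-08). Apoa2, an apolipoprotein of high-density lipoprotein, was higher by 0.42 ± 0.11 (adjusted p = 0.00226), with 6612 to 12508 CPM in DBA and 4925 to 7756 CPM in B6. Cyp2a5, the coumarin hydroxylase, was higher by 1.112 ± 0.40 (adjusted p = 0.0276), with overlapping libraries. That call was lost without B6 male library 3 or B6 male library 4 (adjusted p = 0.0513 each) and without the 3 libraries that lay apart (0.0915). It was also lost with libraries of equal title number summed, N with R (0.118). In females alone the log2 fold change was 0.225 (adjusted p = 0.756). The reference transcripts of Cyp2a5 and Cyp2a4 share 98.3% of bases, so some counts of Cyp2a5 could come from the other copy.

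Cox7a2l, a factor of respiratory supercomplexes whose B6 protein is shortened, was lower in DBA. It lay at 50.1 to 70.4 CPM in DBA (median 62.4) and at 104 to 141 CPM in B6 (median 121), without overlap, a log2 fold change of -0.98 ± 0.07 (adjusted p = 1.8e-12). Hc, the gene of complement component C5, carries a coding deletion in DBA. It lay at 170 to 501 CPM in DBA (median 255) and at 271 to 899 CPM in B6 (median 444), a log2 fold change of -0.83 ± 0.12 (adjusted p = 1.45e-06). Gpnmb, a macrophage glycoprotein with a stop codon in DBA, lay at 0 to 0.228 CPM in DBA and at 0.248 to 13.8 CPM in B6. Myo5a, the motor protein of the dilute coat locus, was lower by a log2 fold change of -0.98 ± 0.24 (adjusted p = 0.00144). Abcc6, a transporter with a splice mutation in DBA, had a log2 fold change of -0.06 ± 0.10 (adjusted p = 0.68). Ahr, the aryl hydrocarbon receptor with its low-affinity DBA allele, had one of -0.31 ± 0.15 (adjusted p = 0.107). For neither gene was a difference in RNA level called.

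**Figure D1:**
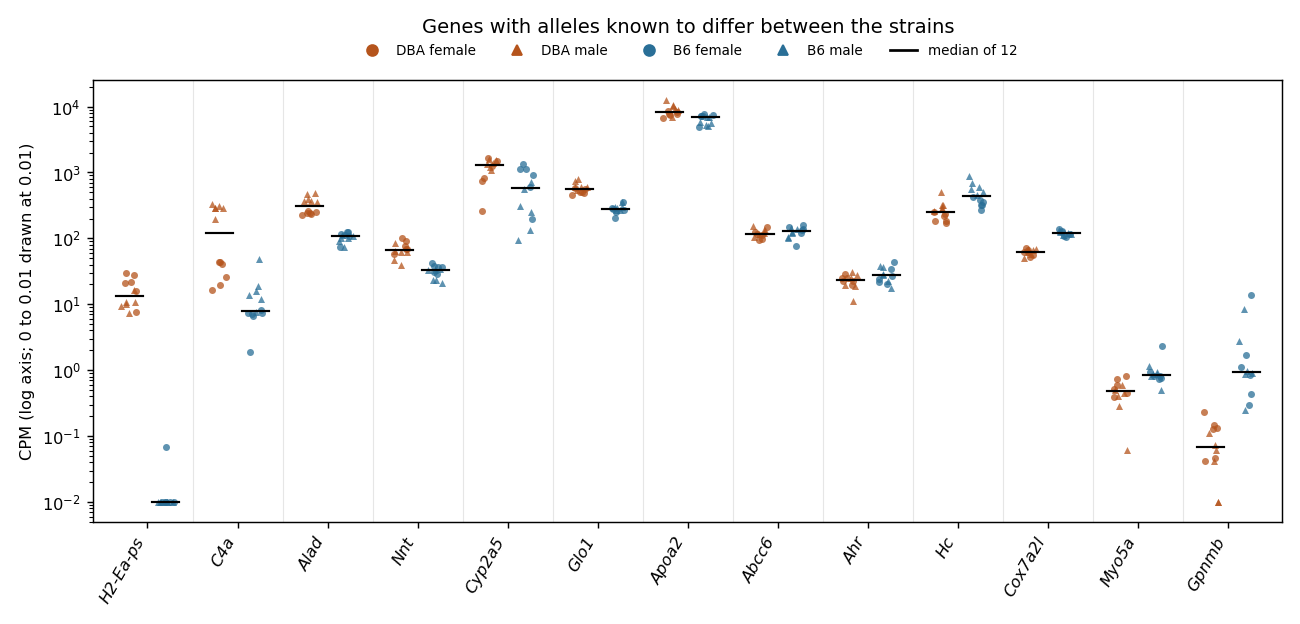
CPM of each of the 24 libraries (log axis) for genes with known alleles; DBA left of B6 for each gene, circles for female and triangles for male livers, bars for the median of 12. Nnt is drawn for the first of its entries. The strains do not overlap for H2-Ea-ps, Alad, Glo1, Cox7a2l and Gpnmb, and C4a separates by sex in DBA.

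The 10 largest rises by fold change, among called genes averaging 1 CPM or more (genes with only a clone or model name left out), were Ifi202b, C1s2, Hist1h2bk, Mrap2, C1rb, Obp2a, Rnase2a, Ctse, Nuggc and Tmc5. Ctse, the endosomal aspartic protease cathepsin E, lay at 120, 150 and 234 CPM in DBA (lowest, median, highest) and 0.347, 0.864 and 2.15 CPM in B6, a log2 fold change of 7.36 ± 0.20 (adjusted p = 4.64e-21). Every DBA library lay far above every B6 library. Ifi202b, an interferon-inducible DNA-binding protein, had 1847 counts in DBA and 0 in B6. Against a floor of 3 counts over the 12 B6 libraries it was at least 724-fold higher in DBA. Hist1h2bk, a histone gene, was at least 354-fold higher in DBA, and Mrap2, an accessory protein of melanocortin receptors, at least 308-fold; neither had a count in B6. These bounds cover counting error only.

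C1rb and C1s2 are the second copies of the genes of the complement proteases C1r and C1s. C1s2 lay at 15.9 to 30.7 CPM in DBA and at 0 to 0.102 CPM in B6, a log2 fold change of 9.44 ± 0.21 (adjusted p = 3.18e-23). C1rb lay at 13.9 to 33.6 CPM in DBA and at 0 to 0.254 CPM in B6, a log2 fold change of 8.46 ± 0.28 (adjusted p = 4.23e-19). Both were expressed in every DBA library. Their reference transcripts share 98.0% of bases with C1ra and 95.9% with C1s1, so some of their counts could come from the other copy. Obp2a, an odorant-binding lipocalin, and Rnase2a, a secreted ribonuclease, were high in DBA males alone. Obp2a lay at 43.0 to 186 CPM in DBA males and at 0.848 CPM or less in DBA females, against 1.31 CPM or less in B6 of either sex. Rnase2a lay at 1.71 to 8.47 CPM in DBA males and at 0.0495 CPM or less in every other library; its strain difference was not called different between the sexes (adjusted p = 0.963), with 1 count in B6.

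The 10 largest falls were Cyp2a22, Gvin1, Trim12a, Olfr1033, Mup15, Olfr1034, Mup18, Nlrp12, Zfp970 and Mndal. Cyp2a22, a cytochrome P450, lay at 98.9 to 579 CPM in B6 females and 2.62 to 21.1 CPM in B6 males, whereas DBA had no count in any female library and 0.124 CPM or less in males. Nlrp12, a cytosolic receptor of the NLR family, lay at 0.183, 0.507 and 2.17 CPM in DBA (lowest, median, highest) and at 60.3, 115 and 206 CPM in B6, a log2 fold change of -7.56 ± 0.22 (adjusted p = 6.52e-20). Gvin1, a very large interferon-inducible GTPase, had 0 counts in DBA and 3908 in B6 and was at least 1110-fold lower in DBA. Trim12a, of a family of antiviral ubiquitin ligases, had 3 counts in DBA and 2712 in B6, a ratio of B6 to DBA of 769 (95% counting interval 263 to 3730). Olfr1033 and Olfr1034, annotated as olfactory receptors, had 1 count each in DBA, against 1424 and 906 in B6. Zfp970, a zinc finger gene, lay at 0 to 0.280 CPM in DBA and at 3.98 to 19.1 CPM in B6. Counted over all genes tested, 13 genes with a mean of at least 1 CPM in B6 had no count in any DBA library, and 11 genes with a mean of at least 1 CPM in DBA had none in any B6 library.

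**Figure D2:**
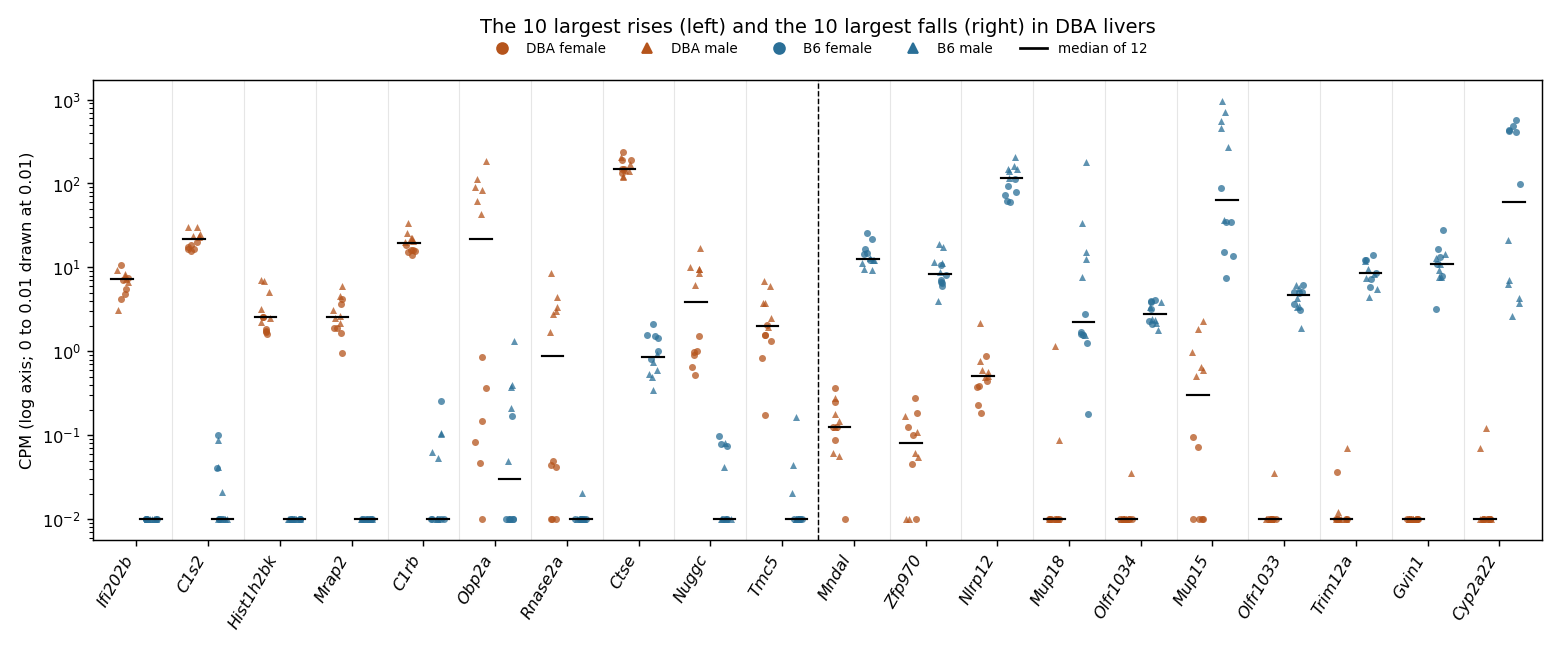
CPM of each library (log axis, values up to 0.01 drawn at 0.01) for the 10 largest rises and the 10 largest falls; DBA left of B6, circles female, triangles male, bars the median of 12. Ctse lies at 120 to 234 CPM in DBA and at 2.15 CPM or less in B6, and Nlrp12 at 2.17 CPM or less in DBA and at 60.3 to 206 CPM in B6; Obp2a and Rnase2a are high in DBA males only.

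Among abundant genes, the largest differences in mean CPM were those of mt-Cytb, mt-Nd2, Serpina1d, mt-Nd4, Cyp4a14, Mup20, Bhmt, Apoa2, Trf and Mat1a. Serpina1d, one of several copies of the alpha-1-antitrypsin gene, lay at 406 to 1155 CPM in DBA (median 777) and at 2288 to 5321 CPM in B6 (median 3877), without overlap, a log2 fold change of -2.33 ± 0.13 (adjusted p = 4.41e-14). Bhmt, which remethylates homocysteine with betaine, was higher by 0.60 ± 0.18 (adjusted p = 0.00916). Mat1a, the liver's methionine adenosyltransferase, was lower by a log2 fold change of -0.49 ± 0.17 (adjusted p = 0.0207), a call lost without the 3 libraries that lay apart (adjusted p = 0.119). Trf, transferrin, was higher by 0.24 ± 0.09 (adjusted p = 0.0392), and leaving out any of 9 single libraries (B6 female 2, B6 male 3 to 6, DBA female 6, DBA male 2, 3 or 5) ended that call, with adjusted p of 0.0522 to 0.0799. The mitochondrially encoded genes mt-Cytb, mt-Nd2 and mt-Nd4 had log2 fold changes of -0.50 ± 0.14, -0.62 ± 0.13 and -0.46 ± 0.13 (adjusted p = 0.00427, 0.000415 and 0.00701). In a fit on males alone mt-Cytb and mt-Nd4 were not called (adjusted p = 0.179 and 0.186). Of the 13 mitochondrially encoded genes tested, 6 were lower in DBA and 0 higher, with a median of -0.46 against 0.01 over all genes. In females 4 were lower and 0 higher, and in males 2 lower and 1 higher. The nuclear genes of oxidative phosphorylation held 3 higher and 3 lower of 32, with a median of 0.07. Of these, 1 was higher and 3 lower in females, and 11 higher and 2 lower in males, with 7 positive interactions.

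The major urinary proteins (MUPs) are lipocalins made by the liver, mostly in males, and excreted to carry pheromones. Their genes form an array of near copies on chromosome 4. Of 19 MUP genes tested, 6 were higher in DBA, 8 were lower and 5 were not called, with a median log2 fold change of -0.39, which was 0.21 when fitted with limma-voom; summed over the family, levels overlapped widely, at 1408 to 18237 CPM in DBA and 1346 to 22628 CPM in B6. The promoters of Mup2, which was higher in DBA, and of Mup15 and Mup19, which were lower, are shown because they are nearly the same sequence. Each runs from 250 bases before to 50 bases after the gene's start, read on the strand of the gene (minus), from RefSeq on GRCm38.p6. Capitals mark bases that differ from, or have no partner in, Mup15 (for Mup2) or Mup2 (for the other pair).
Mup2: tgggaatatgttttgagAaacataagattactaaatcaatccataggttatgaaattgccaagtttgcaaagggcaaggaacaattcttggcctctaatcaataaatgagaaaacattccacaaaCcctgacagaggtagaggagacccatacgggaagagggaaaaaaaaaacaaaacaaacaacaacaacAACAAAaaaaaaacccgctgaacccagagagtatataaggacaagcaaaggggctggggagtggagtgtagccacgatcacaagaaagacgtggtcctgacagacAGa
Mup15: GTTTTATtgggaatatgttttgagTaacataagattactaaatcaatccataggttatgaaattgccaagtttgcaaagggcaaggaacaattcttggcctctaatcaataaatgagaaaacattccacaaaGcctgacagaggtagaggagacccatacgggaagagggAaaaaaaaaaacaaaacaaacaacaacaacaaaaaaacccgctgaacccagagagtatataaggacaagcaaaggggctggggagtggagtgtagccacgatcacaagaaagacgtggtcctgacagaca
Mup19: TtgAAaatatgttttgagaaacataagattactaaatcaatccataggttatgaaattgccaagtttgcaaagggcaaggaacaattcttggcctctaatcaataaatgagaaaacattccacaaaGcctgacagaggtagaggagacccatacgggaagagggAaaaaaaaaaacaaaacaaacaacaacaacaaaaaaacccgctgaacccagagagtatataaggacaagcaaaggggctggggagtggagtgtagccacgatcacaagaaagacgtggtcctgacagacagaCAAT
Mup2 spans chr4:60139807-60140106, Mup15 chr4:61439655-61439954 and Mup19 chr4:61782175-61782474. Mup2 and Mup15 are identical at 290 of 300 bases, with 2 mismatches, and Mup19 and Mup2 at 291 of 300, with 3. The reference transcripts of Mup2 and Mup15 share 99.6% of bases, against 78.6% for Mup2 and Mup3.

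Despite that likeness the counts of these copies ran in opposite directions. Mup2 lay at 474 to 1621 CPM in DBA males and 83.2 to 305 CPM in DBA females, against 2.54 to 9.97 CPM in B6 males and 0.357 to 1.65 CPM in B6 females, a log2 fold change of 7.09 ± 0.32 (adjusted p = 6.62e-15). Mup9 followed the same pattern, at 401 to 965 CPM in DBA males and 2.81 to 17.9 CPM in B6 males, a log2 fold change of 6.09 ± 0.32 (adjusted p = 1.59e-13). Mup15 was the reverse, at 0.509 to 2.30 CPM in DBA males and 36.9 to 961 CPM in B6 males, a log2 fold change of -8.87 ± 0.63 (adjusted p = 9.37e-11). Mup19 was lower by -4.94 ± 0.52 (adjusted p = 8.07e-08) and Mup18 by -7.56 ± 0.99 (adjusted p = 1.94e-06). Mup20, the gene of the male pheromone darcin, is more divergent in sequence; it lay at 895 to 1633 CPM in DBA males and 3840.1 to 10273 CPM in B6 males, a log2 fold change over both sexes of -2.79 ± 0.40 (adjusted p = 6.41e-06). Since DBA reads were placed on the B6 array, a count assigned to one copy may belong to a DBA copy that the reference does not hold, and the values of single MUP genes are uncertain for that reason.

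The Ifi200 family, a cluster of interferon-inducible DNA-sensing genes on chromosome 1, showed 1 member higher and 9 lower of 12 tested, with a median of -1.37. Ifi202b alone was higher. Mndal lay at 0 to 0.365 CPM in DBA and at 9.20 to 25.8 CPM in B6, a log2 fold change of -6.52 ± 0.22 (adjusted p = 2.86e-19). Ifi205 and Ifi213 lay below 0.4 CPM in every DBA library and were lower by -5.84 ± 0.39 and -4.93 ± 0.38 (adjusted p = 1.47e-12 and 2.28e-11).

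**Figure D3:**
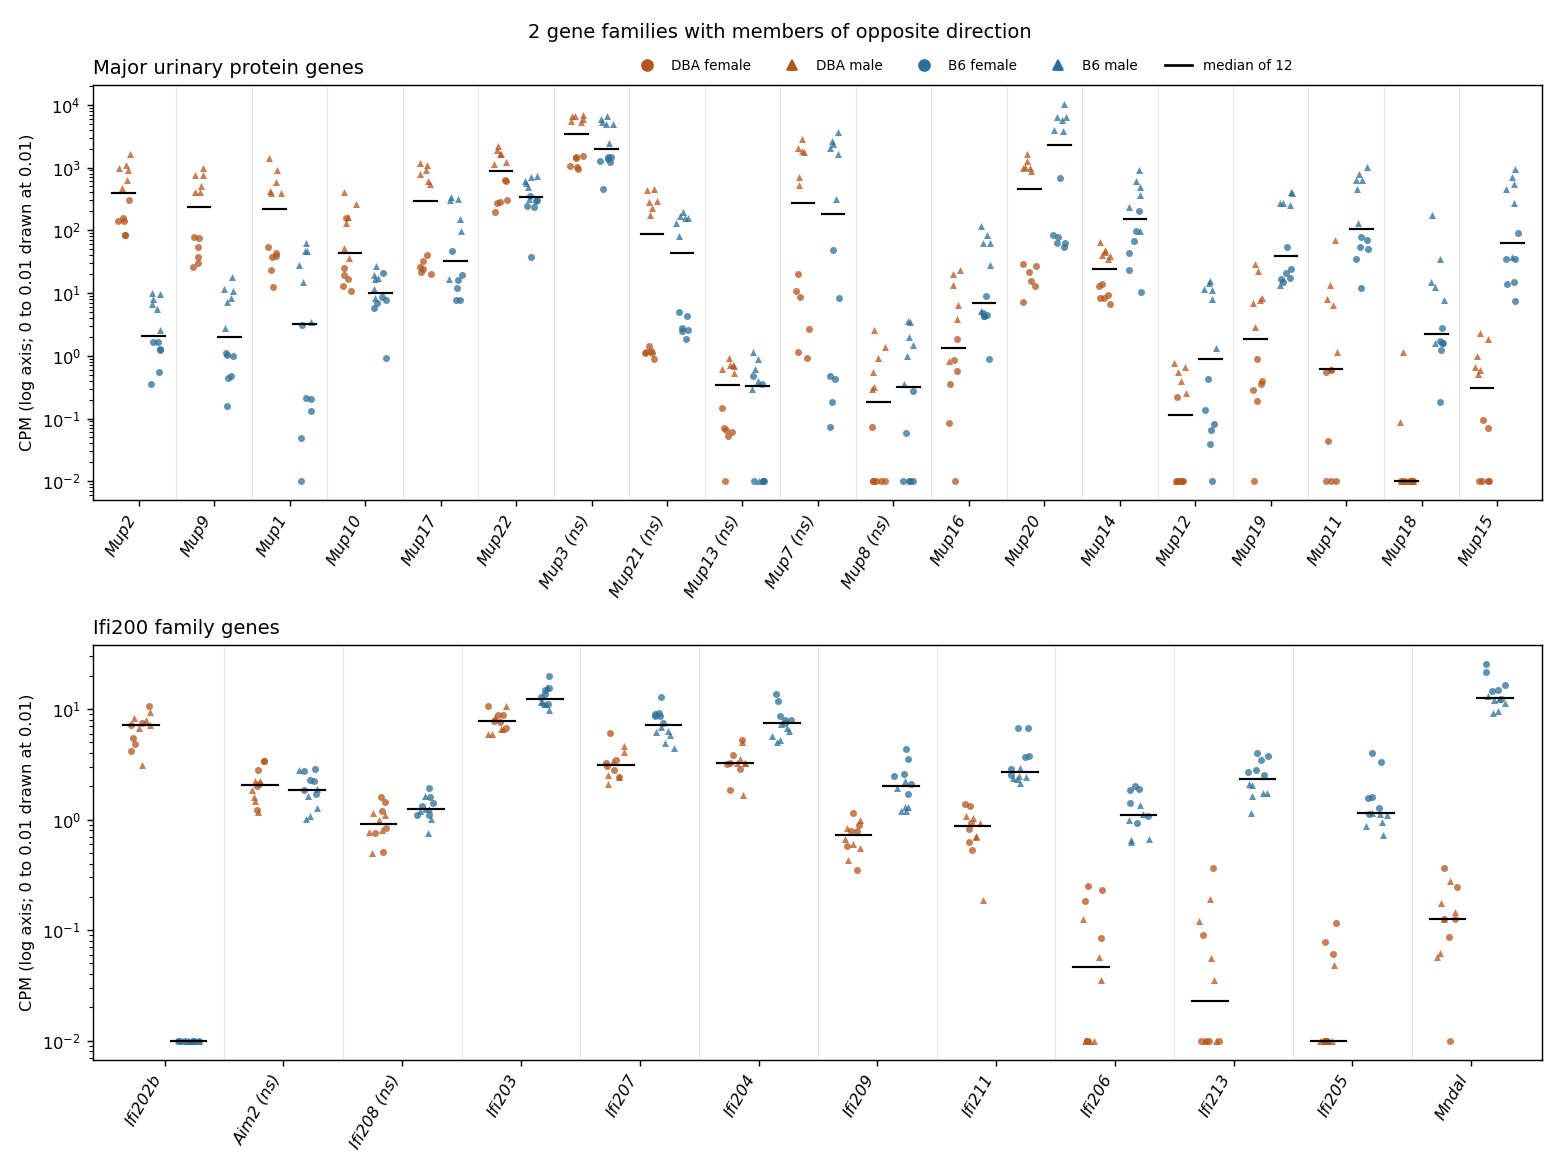
CPM of each library (log axis, values up to 0.01 drawn at 0.01) for the MUP genes tested (top) and the Ifi200 genes tested (bottom), ordered by log2 fold change; DBA left of B6, circles female, triangles male, bars the median of 12; ns marks genes not called. MUP genes range from Mup2, higher in DBA, to Mup15, lower, and among Ifi200 genes Ifi202b is detected in DBA only.

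The alpha globin genes also split in this way. The globin genes Hba-a1 and Hba-a2 share 96.9% of transcript bases. Hba-a2 lay at 0 to 2.13 CPM in DBA and at 21.0 to 92.5 CPM in B6, a log2 fold change of -6.08 ± 0.48 (adjusted p = 5.75e-10), whereas Hba-a1 was higher in DBA by 1.47 ± 0.31 (adjusted p = 0.000523). Hamp2, a copy of the hepcidin gene, lay at 117 to 2661 CPM in DBA (median 475) and at 2.74 to 199.5 CPM in B6 (median 64.3), a log2 fold change of 3.64 ± 0.49 (adjusted p = 2.57e-06); the copies share 94.6% of bases. In the list of iron, copper and zinc genes 8 were higher and 5 lower of 21, with a median of 0.09. Mt2, a metallothionein that binds zinc and copper, lay at 123 to 450 CPM in DBA and at 2.43 to 88.0 CPM in B6, a log2 fold change of 2.89 ± 0.43 (adjusted p = 1.11e-05). Hfe, the haemochromatosis gene, was lower by -0.70 ± 0.07 (adjusted p = 6.51e-09).

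Most lists of drug, steroid and xenobiotic metabolism genes held more members called higher than lower in DBA. Of 20 genes of the Cyp2a, Cyp2b and Cyp2c families, 8 were higher and 4 lower (median 0.37), and of 28 genes of the Cyp2d, Cyp2j, Cyp3a, Cyp4a and related families 10 were higher and 4 lower (median 0.19). Sulfotransferases and UDP-glucuronosyltransferases held 12 higher and 5 lower of 25 (median 0.44), carboxylesterases 8 higher and 1 lower of 14 (median 0.51) and glutathione S-transferases 8 higher and 1 lower of 22 (median 0.12). Flavin monooxygenases and aldo-keto reductases held 4 higher and 2 lower of 15 (median 0.19). Targets of the aryl hydrocarbon receptor held 1 higher and 3 lower of 7 (median -0.15), with medians of -0.58 in females and 0.05 in males. Summed over that list, levels were nevertheless higher in DBA, at 510 to 1261 CPM against 198 to 490 CPM in B6. Over all genes the shares called higher and lower were 20.9% and 20.8%. In females glutathione S-transferases held 3 higher and 4 lower (median -0.14) and Cyp2a, Cyp2b and Cyp2c genes 4 and 4.

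Cyp2c39 lay at 22.8 to 459 CPM in DBA (median 279) and at 2.55 to 16.4 CPM in B6 (median 9.43), a log2 fold change of 4.71 ± 0.28 (adjusted p = 1.08e-12). Cyp2c23, which also lies on chromosome 19, ran the other way, at 13.3 to 62.6 CPM in DBA and 152 to 318 CPM in B6 (log2 fold change -3.01 ± 0.17, adjusted p = 1.12e-13). Among Cyp3a genes, Cyp3a25 was higher by 1.23 ± 0.10 (adjusted p = 1.61e-10), whereas Cyp3a13 was lower, at 23.7 to 41.2 CPM in DBA and 145 to 236 CPM in B6 (log2 fold change -2.61 ± 0.11, adjusted p = 2.71e-17). For these 4 genes the strains did not overlap. Ugt1a9, which conjugates phenols and drugs, lay at 433 to 823 CPM in DBA and at 24.02 to 102 CPM in B6, a log2 fold change of 3.41 ± 0.19 (adjusted p = 9.21e-14). Ces1b, a carboxylesterase, lay at 257 to 553 CPM in DBA and at 33.2 to 87.8 CPM in B6, a log2 fold change of 2.77 ± 0.12 (adjusted p = 1.44e-16). Cyp1a2, the caffeine-metabolising cytochrome of pericentral hepatocytes, was higher by 1.49 ± 0.22 (adjusted p = 7.94e-06), without overlap. Gsta4, which clears lipid peroxidation products, was higher by 1.19 ± 0.11 (adjusted p = 1.71e-09).

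Of 24 genes that liver expresses mostly in males 10 were higher and 2 lower in DBA (median 0.16). Of 30 female-biased genes 8 were higher and 7 lower (26.7% and 23.3%, median -0.01), near the 20.9% and 20.8% over all genes. Selenbp2, a selenium-binding protein, lay at 715 to 2182 CPM in DBA males and 24.5 to 34.6 CPM in DBA females, against 16.6 to 177 CPM in B6 males and 0.615 to 8.51 CPM in B6 females. DBA was thus above B6 in each sex (log2 fold change 3.65 ± 0.38, adjusted p = 5.09e-08). Among female-biased genes, Cyp3a44 lay at 324 to 607 CPM in DBA females and 3.33 to 39.6 CPM in B6 females, and at 1.95 CPM or less in males of either strain. Sult3a1, a sulfotransferase, lay at 456 to 1461 CPM in DBA females and 6.29 to 60.6 CPM in B6 females, and at 0.198 CPM or less in males. The log2 fold changes were 5.02 ± 0.47 and 4.51 ± 0.49 (adjusted p = 8.76e-09 and 7.92e-08).

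RNA of genes of fatty acid oxidation, which the liver raises in fasting under the nuclear receptor PPARA, was more often lower than higher in DBA. Of 37 genes 21 were lower and 1 was higher, with a median log2 fold change of -0.26 against 0.01 over all genes. In females 10 were lower and 0 higher (median -0.15), and in males 24 lower and 1 higher (-0.40). Of the interactions 10 were negative and 1 was positive. Slc25a20, the carnitine-acylcarnitine carrier, was lower by -0.77 ± 0.07 (adjusted p = 1.63e-10), with 85.4 to 116 CPM in DBA and 142 to 206 CPM in B6. Angptl4, an inhibitor of lipoprotein lipase, was lower by -0.84 ± 0.09 (adjusted p = 8.89e-09) and Crat, carnitine acetyltransferase, by -0.72 ± 0.09 (adjusted p = 2.96e-07); neither overlapped.

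Fat synthesis and storage genes were also called lower more often than higher in DBA. Of 27 fatty acid synthesis genes 9 were lower and 3 higher (median -0.19), and of 24 lipid droplet genes 9 were lower and 1 higher (median -0.41). In females 8 synthesis genes were lower and 0 higher, and in males 10 lower and 6 higher. For droplet genes these counts were 10 and 0 in females and 5 and 3 in males, with 4 positive interactions and 0 negative. Summed droplet gene levels overlapped, at 6124 to 11105 CPM in DBA and 6087 to 9858 CPM in B6. Acaca, acetyl-CoA carboxylase, lay at 13.1 to 26.3 CPM in DBA (median 18.2) and at 47.3 to 76.2 CPM in B6 (median 53.5), a log2 fold change of -1.60 ± 0.11 (adjusted p = 2.35e-12). Lpin1, a phosphatidate phosphatase and coactivator, lay at 4.58 to 12.7 CPM in DBA and at 19.7 to 90.8 CPM in B6, a log2 fold change of -2.42 ± 0.19 (adjusted p = 1.07e-10). Elovl6, the elongase of palmitate, was lower by -0.99 ± 0.13 (adjusted p = 1.05e-06). Cidec, which fuses lipid droplets and is raised in fatty liver, lay at 0.959, 2.82 and 6.93 CPM in DBA and at 11.3, 20.2 and 91.7 CPM in B6, a log2 fold change of -3.38 ± 0.36 (adjusted p = 5.84e-08). Fitm2, Plin5 and Plin2, further droplet genes, were lower by -0.86 ± 0.10, -0.98 ± 0.12 and -0.65 ± 0.10 (adjusted p = 5.01e-08, 1.58e-07 and 1.42e-05). For Acaca, Lpin1 and Cidec the strains did not overlap.

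In cholesterol synthesis 7 of 25 genes were lower and 0 higher, with a median of -0.17. In females 2 were lower and 3 higher (median 0.13), and in males 8 lower and 1 higher (-0.54), with 1 positive and 3 negative interactions. Hmgcs1, the cytosolic HMG-CoA synthase, lay at 19.4 to 41.7 CPM in DBA (median 26.7) and at 40.5 to 212 CPM in B6 (median 97.6), a log2 fold change of -1.87 ± 0.21 (adjusted p = 6.91e-08). Sc5d, a late enzyme of the pathway, was lower by -0.74 ± 0.10 (adjusted p = 8.13e-07). Bile acid and sterol handling was mixed, with 10 higher and 7 lower of 26 and a median of 0.04. Fgfr4, the receptor of the intestinal bile acid signal, was higher by 0.71 ± 0.07 (adjusted p = 7.67e-10) and the sterol exporter Abca1 by 0.62 ± 0.08 (adjusted p = 8.76e-07). Abcc2, which exports conjugates into bile, was lower by -0.80 ± 0.11 (adjusted p = 5.77e-07). Of 21 genes of apolipoproteins and lipoprotein handling 4 were higher and 6 lower (19.05% and 28.6%, median -0.02), near the 20.9% and 20.8% over all genes.

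Of 24 genes of glucose metabolism 8 were lower and 4 higher (33.3% and 16.7%, median -0.13), against 20.8% and 20.9% over all genes. In females 4 were lower and 3 higher (median -0.08), and in males 10 lower and 4 higher (-0.12). G6pc, which releases glucose from the liver, lay at 67.3 to 275 CPM in DBA (median 115) and at 185 to 751 CPM in B6 (median 362), a log2 fold change of -1.53 ± 0.25 (adjusted p = 2.38e-05). Pck1, the cytosolic carboxykinase of gluconeogenesis, was lower by -0.71 ± 0.13 (adjusted p = 7.83e-05) and Fbp1, fructose bisphosphatase, by -0.60 ± 0.12 (adjusted p = 0.000145). Gckr, the nuclear inhibitor of glucokinase, was higher by 0.66 ± 0.11 (adjusted p = 1.22e-05), at 233 to 346 CPM in DBA and 105 to 231 CPM in B6.

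Breakdown of branched-chain amino acids, the isoleucine pathway included, showed 8 genes higher and 4 lower of 28 (28.6% and 14.3%, median 0.11). Bckdhb, a subunit of the branched-chain ketoacid dehydrogenase, lay at 71.2 to 117 CPM in DBA (median 100.3) and at 54.7 to 71.7 CPM in B6 (median 65.6), a log2 fold change of 0.62 ± 0.07 (adjusted p = 1.37e-07). Acadsb, which acts on the isoleucine product, was higher by 0.47 ± 0.07 (adjusted p = 4.33e-06), and Ivd, of the leucine branch, was lower by -0.66 ± 0.10 (adjusted p = 8.49e-06). In the wider list of amino acid breakdown and the urea cycle 12 were higher and 13 lower of 48 (25% and 27.1%, median -0.09). Dhtkd1, of lysine and tryptophan breakdown and a locus with a known B6 and DBA difference, lay at 76.1 to 154 CPM in DBA and at 37.6 to 88.1 CPM in B6, a log2 fold change of 1.115 ± 0.13 (adjusted p = 6.42e-08). Tdo2, the first enzyme of tryptophan breakdown, was lower by -0.69 ± 0.11 (adjusted p = 7.16e-06). The list of ATF4 targets, which respond to amino acid shortage, held 6 higher and 4 lower of 29 (20.7% and 13.8%, median -0.11). Over all genes the shares were 20.9% and 20.8%, and those of these amino acid lists were not far from them. Trib3, a pseudokinase, was higher by 0.99 ± 0.17 (adjusted p = 3.37e-05).

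NRF2 is the transcription factor of the antioxidant response. Of 25 of its targets 12 were lower and 0 higher, with a median of -0.28. In females 15 were lower and 0 higher (median -0.54), in males 7 lower and 3 higher (-0.02), and 7 interactions were positive. Gsr, glutathione reductase, lay at 16.4 to 30.9 CPM in DBA and at 40.5 to 68.0 CPM in B6, a log2 fold change of -0.97 ± 0.10 (adjusted p = 6.48e-09), without overlap. Hmox1, haem oxygenase, was lower by -1.40 ± 0.16 (adjusted p = 1.26e-07) and Gclm, a subunit of the enzyme that starts glutathione synthesis, by -0.52 ± 0.07 (adjusted p = 1.24e-06). Hmox1 is also abundant in macrophages, whose markers were also lower. Clock genes held 6 higher and 2 lower of 20 (median 0.33, and 0.0835 without the 3 libraries that lay apart), with Per3 higher by 1.35 ± 0.28 (adjusted p = 0.000454); the hour of sampling is not in the labels, and its part in this was not tested. Cell cycle genes held 2 higher and 7 lower of 23 (median -0.35, and -0.11 without those 3 libraries). Mcm6, a subunit of the replicative helicase, was lower by -2.44 ± 0.24 (adjusted p = 3.06e-09). In females 0 cell cycle genes were higher and 7 lower (median -0.76), and in males 4 higher and 4 lower (-0.15). By sex, clock genes held 1 higher and 1 lower in females, and 8 higher and 3 lower in males.

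Interferon response genes were higher in DBA. In DBA 24 of 30 were higher and 1 was lower, with a median of 0.88. In the fit on all 24 libraries the median was 0.42 in females and 1.43 in males, and for 21 of the 30 the log2 fold change was more positive in males by the interaction test. Xaf1, a proapoptotic interferon target, lay at 22.8, 30.99 and 52.6 CPM in DBA (lowest, median, highest) and at 3.398, 5.11 and 11.1 CPM in B6, a log2 fold change of 2.57 ± 0.19 (adjusted p = 4.34e-11). Ifi27 was higher by 1.505 ± 0.11 (adjusted p = 4.64e-12), at 121 to 275 CPM in DBA and 48.8 to 75.6 CPM in B6. Mx2, an antiviral GTPase, was higher by 2.05 ± 0.17 (adjusted p = 2.58e-10) and Ifi44 by 1.95 ± 0.23 (adjusted p = 1.46e-07). None of these 4 genes overlapped between strains. Summed over the list, levels were 707 to 1831 CPM in DBA and 386 to 901 CPM in B6. Of 18 guanylate-binding and immunity-related GTPases 8 were higher and 2 lower (median 0.45), Gbp11 at 34.9 to 190 CPM in DBA and 1.72 to 12.6 CPM in B6. In females 3 of these GTPases were higher and 2 lower (median -0.21), and in males 9 higher and 1 lower (0.86), with 5 positive interactions and 0 negative.

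Antigen presentation split by class. Of 20 MHC class I genes 8 were higher and 8 lower (median 0.09). In females 3 were higher and 9 lower (median -0.23), and in males 9 higher and 7 lower (0.27), with 9 positive interactions and 1 negative. H2-K1, a classical class I gene, lay at 142 to 283 CPM in DBA and at 870.3 to 1782 CPM in B6, a difference of -2.72 ± 0.12 in log2 (adjusted p = 7.16e-17), and H2-Q7 was lower by -1.71 ± 0.12 (adjusted p = 3.02e-12). H2-T10 was higher by 2.18 ± 0.18 (adjusted p = 1.34e-10). DBA carries another haplotype than the reference at these highly variable genes, and how well its reads align there was not tested. Of 11 class II genes 9 were lower and 1, H2-Ea-ps, was higher (median -1.54). H2-Aa, a class II alpha chain, lay at 6.13 to 25.4 CPM in DBA (median 10.6) and at 19.5 to 173 CPM in B6 (median 47.9), a log2 fold change of -2.23 ± 0.24 (adjusted p = 6.52e-08). H2-DMb1, a chaperone of peptide loading, was lower by -2.62 ± 0.25 (adjusted p = 2.37e-09).

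Macrophage, matrix and lymphocyte markers were called lower more often than higher in DBA, as were the class II genes. Of 13 Kupffer cell markers 10 were lower and 0 higher (median -0.76), and of 15 markers of infiltrating macrophages 12 were lower and 0 higher (median -1.30). The latter list includes Gpnmb, which has a stop codon in DBA, and Spp1, which is also in the list of cholangiocyte markers. In bulk RNA, fewer cells of a type and less RNA per cell cannot be told apart. Folr2, a folate receptor of resident macrophages, lay at 0 to 0.423 CPM in DBA and at 3.11 to 19.2 CPM in B6, a log2 fold change of -5.07 ± 0.32 (adjusted p = 7.83e-13). Marco, a scavenger receptor, was lower by -3.15 ± 0.42 (adjusted p = 2.08e-06) and Adgre1, which encodes F4/80, by -1.28 ± 0.21 (adjusted p = 2.14e-05). Spp1, osteopontin, lay at 13.1 to 30.3 CPM in DBA and at 37.3 to 114 CPM in B6, a log2 fold change of -1.64 ± 0.19 (adjusted p = 1.03e-07). Trem2, of lipid-associated macrophages, was lower by -2.69 ± 0.34 (adjusted p = 4.02e-07). Summed Kupffer markers ran from 158 to 446 CPM in DBA and from 261 to 1070.4 CPM in B6, and summed infiltrating macrophage markers from 47.3 to 109 CPM in DBA and from 102 to 264 CPM in B6. Without the 3 libraries that lay apart the median of the infiltrating macrophage list was -0.96. By sex, 10 Kupffer markers were lower in females (median -1.05) and 3 in males (-0.47), and 3 were lower on the low isoleucine diet (median -0.14).

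Of 19 stellate cell and matrix markers 10 were lower and 0 higher (median -0.41); Col1a1, the alpha chain of type I collagen, lay at 0.866 to 5.41 CPM in DBA and at 4.11 to 14.6 CPM in B6, a log2 fold change of -1.92 ± 0.29 (adjusted p = 7.92e-06). Of 15 lymphocyte markers 7 were lower and 1, Cd4, was higher (median -0.68); Trac, the constant region of the T cell receptor alpha chain, was lower by -2.21 ± 0.34 (adjusted p = 6.5e-06). Sinusoidal endothelial markers held 1 higher and 4 lower of 15 (median -0.14). Lyve1 was lower by -1.78 ± 0.23 (adjusted p = 5.88e-07) and Stab2 was higher by 0.69 ± 0.13 (adjusted p = 0.000104), so these scavenger receptors of one cell type ran in opposite directions. Cholangiocyte markers held 2 higher and 2 lower of 8 (25% each, median -0.51). Hepatocyte markers held 2 higher and 2 lower of 12 (16.7% each, median 0.09). Over all genes the shares were 20.9% and 20.8%, near those of these 2 lists. The summed level of hepatocyte markers was 99659 to 132972 CPM in DBA and 92939 to 136876 CPM in B6. Whether the lower macrophage, lymphocyte and matrix markers account for part of the lower class II and NRF2 target levels was not tested.

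Genes of secreted liver proteins were called in both directions. Of 37 complement and coagulation genes 15 were higher and 7 lower (40.5% and 18.9%, median 0.13). Of 23 acute phase genes 6 were higher and 4 lower (26.1% and 17.4%, median -0.03), near the 20.9% and 20.8% over all genes. F11, coagulation factor XI, lay at 59.2 to 110.4 CPM in DBA and at 18.3 to 40.0 CPM in B6, a log2 fold change of 1.61 ± 0.11 (adjusted p = 7.41e-13). Cfhr2, a relative of complement factor H, lay at 52.2 to 116 CPM in DBA and at 187 to 490 CPM in B6, a log2 fold change of -1.85 ± 0.12 (adjusted p = 6.18e-13). Apcs, serum amyloid P, was higher by 2.37 ± 0.24 (adjusted p = 1.35e-08), at 139 to 487 CPM in DBA and 34.9 to 133 CPM in B6. For these 3 genes the strains did not overlap.

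**Figure D4:**
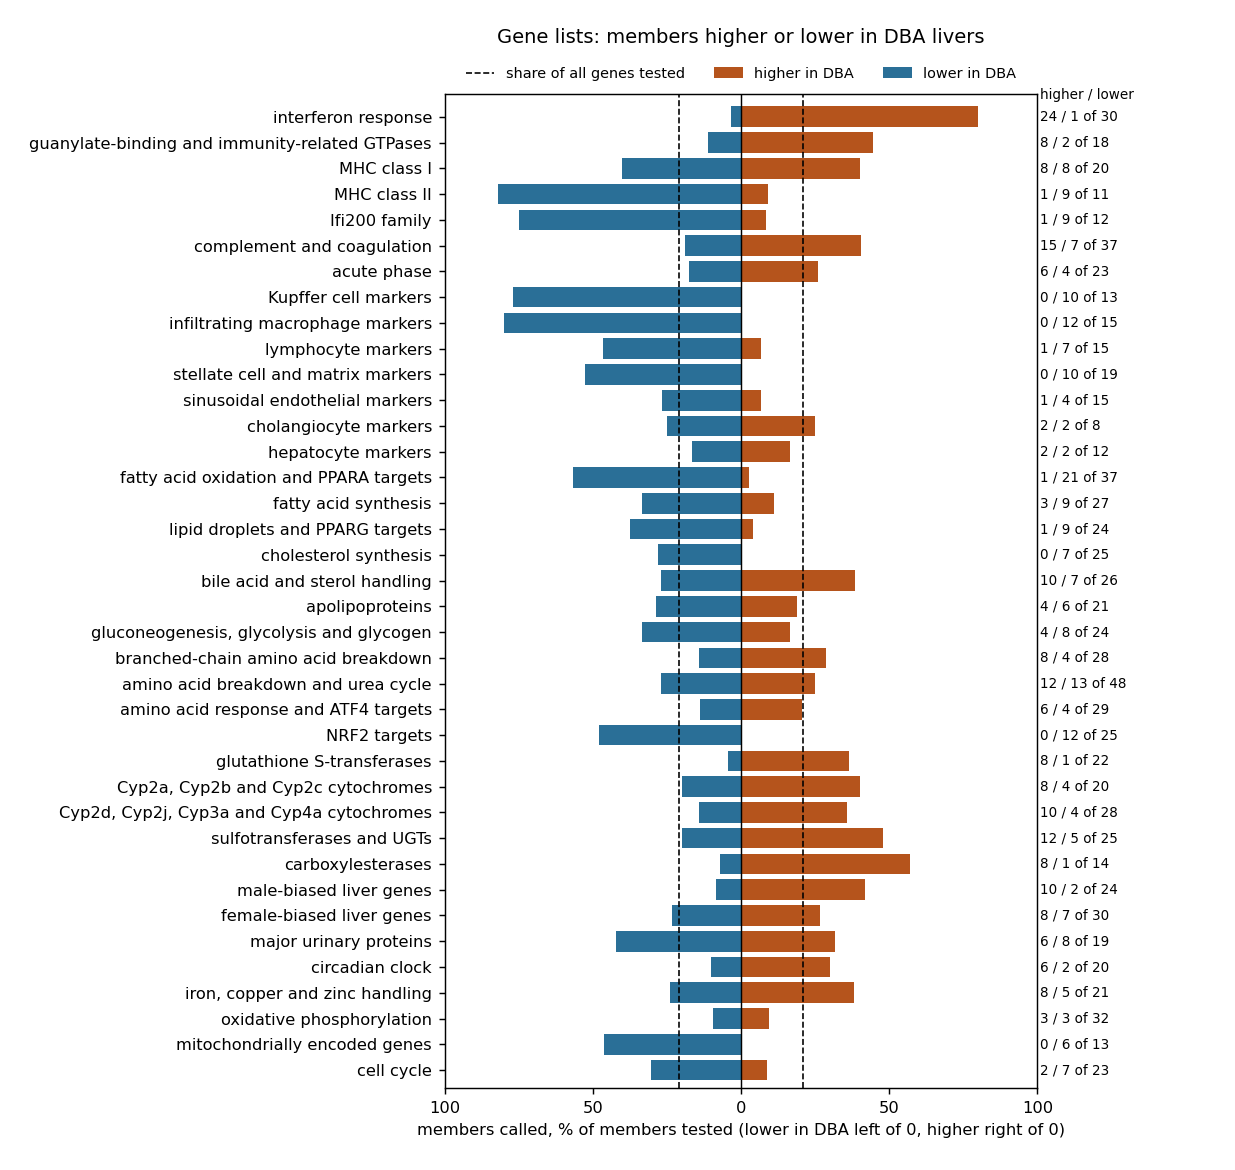
Share of the tested members of each gene list called higher (right) or lower (left) in DBA livers, with the counts at the right margin; dashed lines mark the shares over all genes tested, 20.9% higher and 20.8% lower. Interferon response genes have 24 of 30 higher, and class II, infiltrating macrophage and Kupffer cell lists 9 of 11, 12 of 15 and 10 of 13 lower.

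The strain difference itself depended on sex for 2111 genes (14.9%), 1108 (7.81%) with a more positive and 1003 (7.07%) with a more negative log2 fold change in males than in females. As contrasts of the fit on all 24 libraries, 4460 genes were called in females (31.4%) and 5692 in males (40.1%), whereas fits on the libraries of one sex alone called 4348 and 4802. In both sexes and in the same direction 2398 genes were called, and in opposite directions 192. The largest negative interactions were those of Cyp2c40, Cyp2c69, Serpina1e, Lepr and Adcy1, and the largest positive ones by fitted value those of Sult1e1, Zfp982, Cyp2b10, Themis and Nuggc. With libraries of equal number summed, N with R, the count was 549, and with the title number as a block in limma-voom it was 975. Of these 10 genes, Cyp2b10 lost its call when libraries were summed (adjusted p = 0.068). With the block in limma-voom 6 of the 10 lost it. Cyp2b10 and Cyp2c69 lost it without the block (0.0754 and 0.12) and with it (0.169 and 0.275). Adcy1, Cyp2c40, Sult1e1 and Zfp982 lost it with the block (0.066 to 0.121) but not without it.

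Cyp2c40, a female-biased cytochrome P450, lay at 460 to 678 CPM in DBA females and 152 to 430 CPM in B6 females, but at 0 to 0.493 CPM in DBA males and 0.764 to 71.5 CPM in B6 males. DBA libraries lay above B6 libraries in females and below them in males. The female difference was not called in the fit on all 24 libraries (adjusted p = 0.233) and was called in a fit on females alone (log2 fold change 0.85, adjusted p = 0.00523), and the male difference was called in both. The interaction was -7.26 ± 0.97 (adjusted p = 0.000128). Serpina1e, the male-biased alpha-1-antitrypsin copy, lay at 7.09 to 47.4 CPM in DBA males and 558 to 5080.1 CPM in B6 males, and in females the strains overlapped below 81 CPM. Its interaction was -5.75 ± 1.05 (adjusted p = 0.00136). Lepr, the leptin receptor, lay at 0.742 to 1.96 CPM in DBA males and 8.67 to 103 CPM in B6 males, against 12.4 to 46.5 CPM in DBA females and 14.3 to 73.7 CPM in B6 females. The interaction was -4.45 ± 0.80 (adjusted p = 0.00129). Adcy1, an adenylate cyclase, was higher in DBA females, at 1.71 to 13.3 CPM against 0.259 to 2.05 CPM in B6 females, and its interaction was -4.27 ± 0.90 (adjusted p = 0.00331). That of Cyp2c69 was -7.06 ± 1.47 (adjusted p = 0.00351).

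Among positive interactions, Sult1e1, the oestrogen sulfotransferase, lay at 1.25 to 13.4 CPM in DBA males and 0.0207 to 0.656 CPM in B6 males, while the female groups overlapped at 2.37 to 40.0 CPM in DBA and 4.24 to 20.05 CPM in B6. Its interaction was 5.11 ± 1.12 (adjusted p = 0.00482). Themis, a signalling protein known from developing T cells, lay at 3.46 to 6.32 CPM in DBA males and 0.397 to 3.11 CPM in B6 males, but at 0 to 0.347 CPM in DBA females and 0.164 to 3.16 CPM in B6 females, an interaction of 4.76 ± 0.82 (adjusted p = 0.000696). Nuggc, a nuclear GTPase, was higher in DBA of both sexes, at 6.21 to 16.8 CPM in DBA males and 0.525 to 1.54 CPM in DBA females, against 0.0972 CPM or less in B6. Zfp982, a zinc finger gene, had no count in DBA females, 0.169 to 0.747 CPM in DBA males, 0.403 to 2.13 CPM in B6 females and 0.7503 to 4.35 CPM in B6 males, so its fitted interaction (adjusted p = 0.00796) has no size that can be given. That of Cyp2b10 was 4.77 ± 1.27 (adjusted p = 0.0151), and it was lost without DBA male library 2 (adjusted p = 0.0525).

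Cyp4a14, a fatty acid hydroxylase and PPARA target, is an abundant example. It lay at 745 to 1859 CPM in DBA males and 5890.1 to 9212 CPM in B6 males, without overlap, but at 6107 to 6552 CPM in DBA females and 4318 to 7088 CPM in B6 females. The interaction was -2.57 ± 0.26 (adjusted p = 1.11e-06). In the fatty acid oxidation list as a whole 24 genes were lower in males and 10 in females, and 10 interactions were negative and 1 positive.

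**Figure D5:**
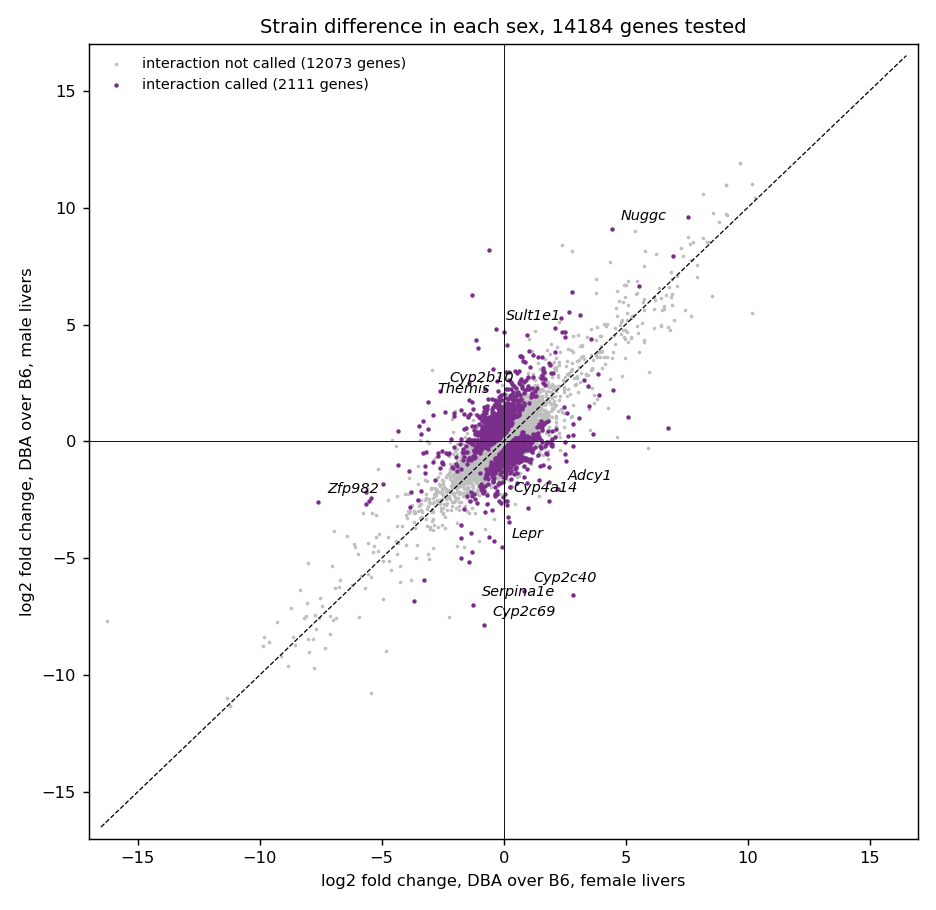
Log2 fold change of DBA over B6 in female (x axis) and male (y axis) livers for each gene tested; purple points are the 2111 genes whose strain difference differs between the sexes, and the dashed line marks equal differences. Cyp2c40 and Serpina1e lie far below the line, and Nuggc, Sult1e1 and Themis above it.

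Repeating the comparison in the 24 libraries on the low isoleucine diet and the 24 on the high isoleucine diet, which share no library with the control diet, called 6440 (45.4%) and 6487 (45.7%) of the same 14184 genes. Of the 5914 genes called on the control diet, 95.1% had the same direction on the low and 96.8% on the high isoleucine diet, 72.2% and 75.9% were called in that direction, and 59.6% were called in it on all 3 diets. Of the 1532 genes that differed at least 2-fold, 90.7% and 92.5% were called in the same direction. The log2 fold change of Ctse was 6.91 on the low and 6.39 on the high isoleucine diet, and that of Nlrp12 was -6.43 and -5.76. Of 30 interferon genes 18 and 26 were higher. Glutathione S-transferases held 9 higher and 3 lower of 22 on the low isoleucine diet and 2 higher and 10 lower on the high isoleucine diet. Carboxylesterases held 7 higher and 1 lower of 14 on the low and 4 higher and 6 lower on the high diet, and Cyp2a, Cyp2b and Cyp2c genes 6 higher and 5 lower of 20 on the low and 4 higher and 6 lower on the high diet (median -0.47).

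The strain difference on the control diet departed from the mean of the other diets for 52 genes (0.367%), 19 with a more positive and 33 with a more negative value. With N and R libraries of equal number summed, 1 gene was called. Among genes named here these were Cyp51, Saa2, Cyp4a14, Cdh1, Apom and Ces1e. Cyp51, a demethylase of cholesterol synthesis, had a log2 fold change of -1.47 on the control diet, 0.01 on the low and 0.83 on the high isoleucine diet (difference -1.88 ± 0.35, adjusted p = 0.00603). Saa2, an acute phase protein, had -1.98 on the control diet, 1.5 on the low and 1.09 on the high isoleucine diet (difference -3.25 ± 0.74, adjusted p = 0.0264). In cholesterol synthesis 0 genes were higher on the control diet, 9 on the low and 18 on the high isoleucine diet.

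Called genes were spread over the genome. In 281 windows of 5 Mb with at least 20 genes tested, 14.6 to 73.5% of genes were called, with a median of 40.7%. The share was 31.5% on the X chromosome. Of 303 genes on the autosomes and X that differed 8-fold or more, 47 lay in the 7 windows that held at least 5 of them. The window at 60 to 65 Mb of chromosome 4, which holds the MUP array, had 12, that at 40 to 45 Mb of the same chromosome had 9, and that at 170 to 175 Mb of chromosome 1, which holds the Ifi200 cluster, had 6. By annotation class, 41.3% of protein-coding genes, 52.2% of lincRNAs and 45.9% of processed pseudogenes were called. Of the 113 processed pseudogenes called, 94 were higher and 19 lower in DBA, and of the 145 lincRNAs 103 were higher and 42 lower, against 2530 higher and 2785 lower among protein-coding genes.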

How the data were processed

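The deposited table holds expected counts per Ensembl gene from liver polyA RNA. Per the labels' protocols the authors aligned reads to GRCm38.p5. No source used here names the aligner or counter; R 3.4.3 is listed in the submitters' processing notes, with limma and edgeR. The labels describe the library kit as stranded mRNA in one field and as total RNA in another. Of nonzero values, 9.56% were not whole. They were rounded for the tests, and levels (CPM, on TMM-scaled library sizes) were computed from the unrounded values.

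The strains were compared with edgeR 4.0.16 (quasi-likelihood test, sex as a blocking term, 14184 genes kept by edgeR's count filter), with Benjamini-Hochberg adjustment over all of them and a threshold of 0.05. Adjusted p-values in the report come from this tool unless limma-voom is named. Genes were named by rank: the 10 largest rises, falls and CPM differences and the 5 largest interactions per direction among called genes averaging 1 CPM or more, and the members of each gene list with the smallest p. Members and lists were chosen with earlier results of these data known. limma 3.58.1 and DESeq2 1.42.0 served as alternatives. The alternatives that leave out B6 female library 4 with B6 male library 1, or with B6 male libraries 1 and 2, were chosen after seeing the data. The fits were tested on simulated data. Counting intervals and floors (3 counts over the 12 libraries of a strain) cover counting error only. One named gene is not reported here.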

Additional observations from a re-analysis of the deposited data

Results flagged for a closer look

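For 27 of the named genes the strain difference differed between the sexes by the interaction test, given here as the log2 fold change in males minus that in females. It was more positive in males for Sult1e1 (5.11), Cyp2b10 (4.77), Themis (4.76), Nuggc (4.66), Cd4 (2.17), Ifi44 (1.53), Xaf1 (1.34), H2-T10 (1.25), Cyp2c23 (1.01), Ctse (0.99), Alad (0.90), Mx2 (0.89) and Apoa2 (0.56). It was more negative in males for Cyp2c40 (-7.26), Cyp2c69 (-7.06), Serpina1e (-5.75), Lepr (-4.45), Adcy1 (-4.27), Cyp4a14 (-2.57), Apom (-1.95), G6pc (-1.36), Mat1a (-1.13), Pck1 (-0.77), Dhtkd1 (-0.70), Abcc2 (-0.67) and Crat (-0.52). Zfp982 was also called, but it has no count in DBA females, so its fitted 4.998 depends on the prior count and is no measured size.

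For 6 named genes the strain difference on the control diet differed from the mean of the other diets, by -3.25 for Saa2, -1.88 for Cyp51, -1.15 for Cdh1 (cadherin 1), -0.70 for Apom, -0.65 for Cyp4a14 and 0.60 for Ces1e (log2).

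Single libraries lay far from the other 5 of their group in 11 of 47 groups looked at. These were Sult1e1 at 40.0 CPM in a DBA female and 13.4 CPM in a DBA male, Nuggc at 16.8 CPM in a DBA male and Serpina1e at 34.2 CPM in a DBA female. In B6 they were Serpina1e at 80.2 CPM, Cyp2b10 at 21.2 CPM and Zfp982 at 2.13 CPM in females, and Lepr at 103 CPM, Adcy1 at 2.69 CPM and Cyp2b10 at 0.410 CPM in males. A B6 male library stood out by its total of 48.8 M counts.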

How the results depend on the processing

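DESeq2 shared 99.5% of the 5914 calls. Called genes numbered 5670 to 5916 with each library left out (2833 to 3002 higher, 2829 to 2966 lower), the 2-fold counts 723 to 775 and 792 to 853, and the sex interaction 1613 to 2735 (840 to 1372 positive, 741 to 1363 negative). Against a 1.5-fold minimum 1524 genes were called (719 higher, 805 lower), in N libraries alone 3065 (1511 and 1554) and in R libraries alone 3158 (1443 and 1715). The 2-fold counts were 1304 and 1411 without a count filter and 469 and 517 at a mean of at least 1 CPM. With N and R libraries summed, 549 genes had a sex interaction (288 and 261) and 1 a diet interaction (0 and 1); without a filter 21 genes had a diet interaction (7 and 14).

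The labels do not say what a title number marks. Deviations from the group mean correlated at a median of -0.003 for same-numbered N and R libraries and -0.25 for others of a group, and the consensus correlation was 0.25, so same-numbered libraries were more alike; p-values that take all 24 as separate may be too small. With the number as a replicate block 4745 genes were called and 975 had a sex interaction (508 and 467), and the medians of sulfotransferases and MUP genes were 0.21 and 0.21 (0.21 and 0.21 with limma-voom without it). Of the 10 largest interactions 6 were not called with the block: those of Adcy1, Cyp2c40, Sult1e1, Zfp982, Cyp2b10 and Cyp2c69. Those of Cyp2b10 and Cyp2c69 were also not called in limma-voom without it.

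List medians moved most in fits on one sex alone, whose values differ from the contrasts of the joint fit given in the report. In females they were 0.44 for interferon genes, -0.21 for GTPases, -0.23 for MHC class I, -1.70 for Ifi200, 0.20 for hepatocyte markers, -0.15 for fatty acid oxidation, -0.54 for NRF2 targets, -0.10 for glutathione transferases, 0.21 for sulfotransferases, 0.25 for carboxylesterases, 0.65 for male-biased genes, -0.087 for oxidative phosphorylation and -0.63 for cell cycle. In males they were 1.43 for interferon genes, 0.26 for MHC class I, -1.02 for Ifi200, -0.77 for infiltrating macrophages, -0.0424 for hepatocyte markers, -0.41 for fatty acid oxidation, -0.11 for lipid droplets, 0.15 for ATF4 targets, -0.0222 for NRF2 targets, 0.33 for glutathione transferases, -0.65 for female-biased genes and 0.20 for oxidative phosphorylation. In N libraries alone they were -0.96 for MHC class II, -1.065 for Ifi200, 0.0316 for ATF4 targets, 0.21 for sulfotransferases and -0.11 for cell cycle, and in R libraries alone -0.0843 for MHC class I, -1.77 for Ifi200, -0.66 for cholesterol synthesis, -0.0535 for glucose metabolism, 0.36 for female-biased genes and -1.19 for MUP genes. ATF4 targets had 0.0354 at a mean of at least 1 CPM, and infiltrating macrophage markers -0.90 without B6 female library 4 and B6 male library 1. Without B6 male library 2 as well they had -0.96, clock genes 0.0835 and cell cycle -0.11, and Lepr, Cyp2a5 and Mat1a lost their calls.

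The log2 fold change turned in females for Cyp2c40 (0.85), Cyp4a14 (0.0347), Mat1a (0.0731) and Sult1e1 (-0.30), and for Abcc6 in males (0.0463) and R libraries (0.0181). Themis, at -0.09 over both sexes, was 1.68 in males, 0.47 in N libraries, 1.01 with limma-voom, 1.12 with the block, 0.0779 without B6 female library 4 and B6 male library 1 and -0.346 to 0.281 with each library left out, above 0 without B6 female library 4 or any 1 DBA female. The cause of these changes was not tested. Genes near the filter, near copies and genes divergent from the reference are the least certain.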
